A study of Mus musculus with 17 samples.

Results

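Round spermatids (RS), the haploid cells that leave meiosis, were compared with leptotene/zygotene spermatocytes (LZ), the cells that enter meiotic prophase, skipping the pachytene/diplotene spermatocytes (PD) between them. The comparison took the 3 RS libraries and the 3 LZ libraries, 6 of the 17 libraries of the series, chosen by their labels. All 6 came from testes of male wild-type C57BL/6JRj mice aged 3 months, and cells were sorted by flow cytometry after staining of DNA with Hoechst 33342 and SYTO 16. The other libraries used here for context were 3 of PD, 3 of early elongating spermatids (EES) and 3 of late elongating spermatids (LES) from the same strain and age, and 1 of round spermatids from juvenile mice (23 days after birth by its title) sorted with Hoechst alone. The labels do not state separate animals for the libraries of a stage, and p-values therefore reflect library-to-library spread, which may be technical. The question is the net change across meiosis: which transcripts return to their starting level in haploid cells, which do not, and which appear.

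In leptotene and zygotene, chromosomes are cut by programmed double-strand breaks, the cuts are repaired on the homologous chromosome by recombinases, and the synaptonemal complex zips homologues together. In pachytene the unpaired X and Y chromosomes are silenced together (meiotic sex chromosome inactivation), and in round spermatids many X-linked genes stay repressed while a set of spermatid genes is switched on. Round spermatids then build the acrosome and the flagellum, with transcripts that are often stored and translated later.

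Levels are RPKM, read counts scaled to exon length in kilobases and to library size. Library totals were inferred from the deposited values. They were 96291002 to 101243064 reads in LZ and 107913614 to 137849519 in RS, so that 1 read per kilobase was worth 0.00725 to 0.0104 RPKM. Fold changes are limma's log2 fold change, RS minus LZ, ± its standard error, on the log2 of RPKM plus 0.01, which understates changes of genes near 0. A gene counted as higher or lower at a limma adjusted p (Benjamini-Hochberg over 13260 tested genes) under 0.05 with a change of at least 2-fold. It counted as within 2-fold where the 95% confidence interval of its change lay wholly inside 2-fold, and otherwise as undetermined. These libraries are bulk RNA, in which fewer cells of a type and less RNA per cell cannot be told apart.

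One library stood apart. LZ replicate 3 correlated with the other LZ libraries at a Spearman rho of 0.937 to 0.948 across genes, and with the RS libraries at 0.538 to 0.559, against 0.371 to 0.414 for the other LZ libraries. With the PD libraries its rho was 0.690 to 0.714, against 0.512 to 0.564 for the other LZ libraries. The summed level of 4 pachytene markers (Piwil1, Ccna1, Tdrd6 and Ldhc) was 107, 96.1 and 567 RPKM in LZ replicates 1 to 3. The same sum was 3198 to 3360 RPKM in PD and 2984 to 3312 in RS, so it does not tell PD from RS. The LZ libraries also carried Sertoli cell markers, whose summed level over 20 genes was 119 to 208 RPKM in LZ and 10.6 to 11.9 in RS, with 12 markers at a mean of 1 RPKM or more in LZ and 4 in RS. Among defining Sertoli transcription factors, Sox9 was at 0.136 to 0.273 RPKM, Gata4 at 0.369 to 0.883 and Wt1 at 0.433 to 1.24 in LZ, and none exceeded 0.0180 in RS. Genes listed as spermatogonial markers (21 genes) summed to 102 to 126 RPKM in LZ and 16.8 to 25.4 in RS. That sum was also 69.3 to 112.6 RPKM in EES and 108.7 to 114.5 in LES, so it is not particular to spermatogonia in these libraries. The part of Sertoli cells and spermatogonia in the falls given below was not tested. Summed markers of Leydig, myoid, blood and endothelial cells stayed at or under 7.56 RPKM in all 6 libraries. Protamines and transition proteins, taken as markers of elongating spermatids, summed to 755 to 1243 RPKM in LZ. Their sum was 61.4 to 243 in PD and 671 to 1452 in RS. The part of elongating spermatid RNA in the LZ levels was not tested.

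The stage markers went with the labels. Dmc1, the meiosis-specific recombinase (chromosome 15, 79561497 to 79605159, GRCm38), was at 74.9, 46.3 and 63.5 RPKM in the LZ libraries and 0.232, 0.331 and 0.369 RPKM in RS. The groups were far apart, and the log2 fold change was -7.58 ± 0.27 (adjusted p = 1.55e-09). Sycp3 (chromosome 10, 88459587 to 88473236), which forms the axial element of meiotic chromosomes, stood at 584, 445 and 481 RPKM in LZ and 68.9, 39.7 and 42.7 in RS, a change of -3.35 ± 0.26 (adjusted p = 1.58e-07). RS kept more Sycp3 than Dmc1 in proportion to LZ. Acrv1, an acrosomal matrix protein (chromosome 9, 36693220 to 36698845), was at 1.53, 1.52 and 4.13 RPKM in LZ and 33.5, 26.1 and 35.7 in RS, and rose by 3.88 ± 0.92 (adjusted p = 0.00181). In the juvenile round spermatid library the same genes were at 0.764, 54.3 and 17.9 RPKM. Protamine 1 and transition protein 1, which replace histones in elongating spermatids, did not separate the groups. Prm1 was at 165, 200.4 and 268 RPKM in LZ and 124, 152 and 234 in RS (-0.34 ± 0.50). Tnp1 was at 220.5, 266 and 317 RPKM in LZ and 219, 352 and 530.3 in RS (0.38 ± 0.48). After quantile normalization Prm1 passed as lower (-1.75). The groups overlapped for both genes, and PD was lower, with means of 23.8 and 38.9 RPKM.

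**Figure D1:**
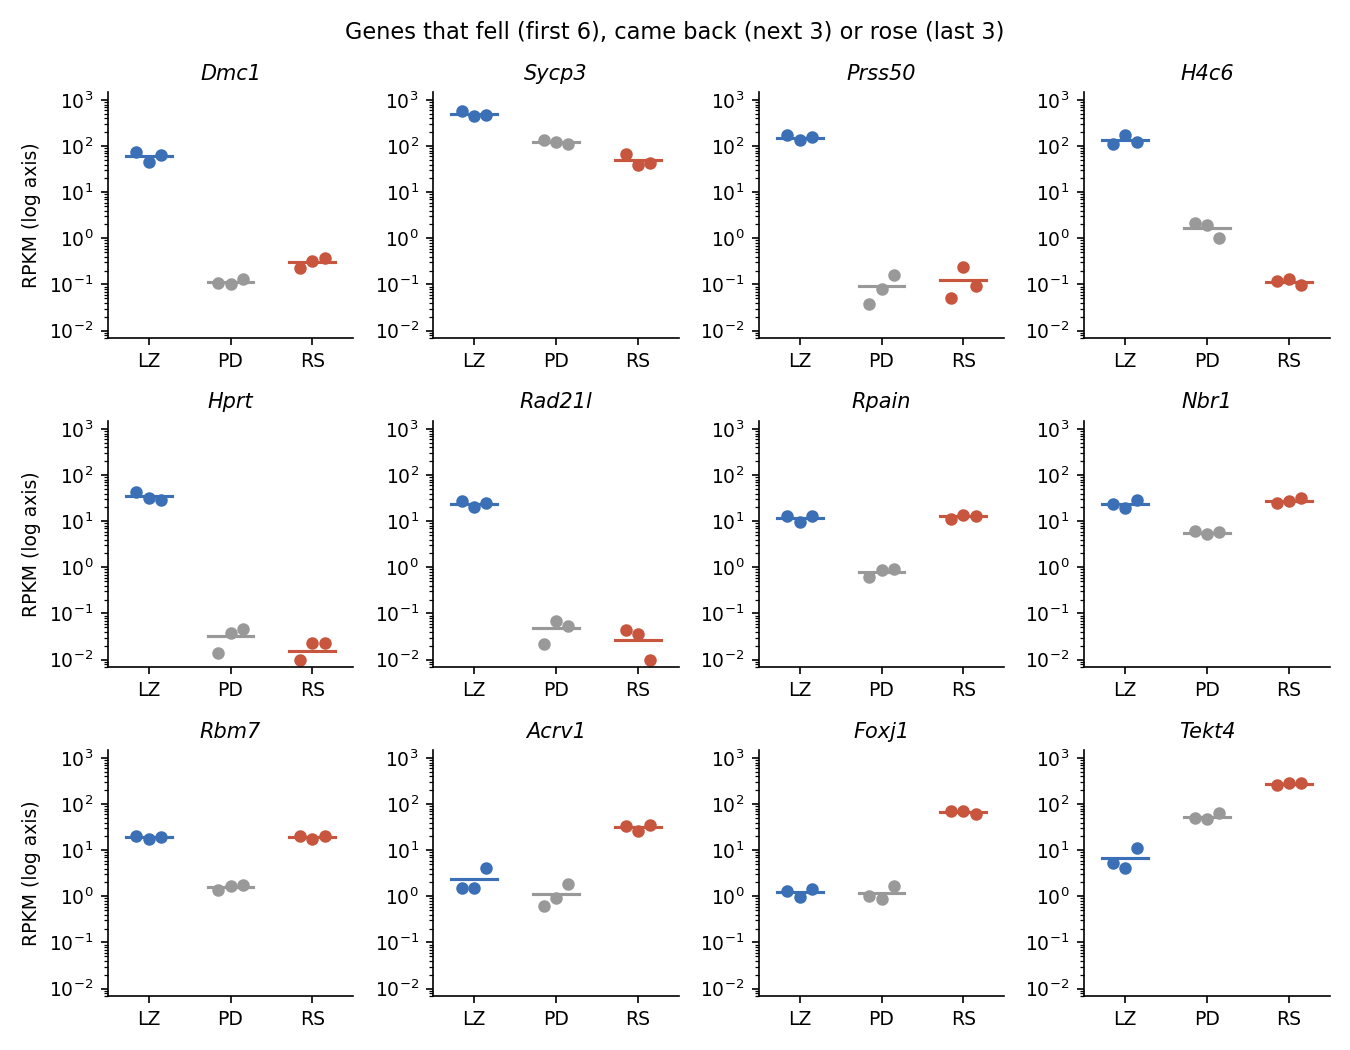
Level of 12 genes in each of the 3 LZ, 3 PD and 3 RS libraries (points; horizontal lines are means), in RPKM on a log axis; values under 0.01 are drawn at 0.01. Dmc1 fell from a mean of 61.6 RPKM in LZ to 0.310 in RS, Rpain was at 12 and 12.7 with a PD mean of 0.807, and Foxj1 rose from 1.26 to 67.3.

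Most tested genes (67.4%) ended meiosis at another level than they began. Of the 13260 genes, 4550 (34.3%) were higher in RS, 4387 (33.1%) were lower, 1048 (7.9%) were within 2-fold and 3275 were undetermined. The 3 libraries of each group did not overlap for 84% of genes. The median change was 0.08 on the log2 scale, and it became 0.30 with libraries centred on their medians, -0.39 with libraries scaled to their reads in genes and -0.04 after quantile normalization. Inferred reads in genes were 56%, 48.4% and 64.9% of the library total in LZ and 74.6%, 80.4% and 78.8% in RS. The part of this difference in the changes was not tested. A complete switch was rarer. A mean under 1 RPKM in LZ and at least 10 in RS was found for 203 of the higher genes, 186 of them autosomal and 17 X-linked. The reverse, at least 10 RPKM in LZ and under 1 in RS, was found for 265 of the lower genes, 232 autosomal, 26 X-linked, 6 Y-linked and 1 elsewhere. Of those 265 genes, 216 also had means under 1 RPKM in both EES and LES, the later stages measured. Where 8 or fewer members of a list differed from the rest, they are named below after their values were seen.

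The 12 largest falls among named protein-coding genes that reached 32 RPKM in LZ, with no overlap between groups, were in 9 histone genes of chromosome 13, Hprt, Prss50 and Ctsd. Hprt, an X-linked purine salvage enzyme (chromosome X, 52988078 to 53021660), was at 43.4, 31.7 and 28.7 RPKM in LZ and 0, 0.0225 and 0.0234 in RS, a change of -10.59 ± 0.63 (adjusted p = 2.32e-08). Prss50, a testis serine protease (chromosome 9, 110857964 to 110864629), went from 173, 135 and 154 RPKM to 0.0509, 0.234 and 0.0933 (-10.38 ± 0.64). Ctsd, a lysosomal protease that somatic cells also express, went from 67.2, 50.4 and 52.7 RPKM to 0.119, 0.178 and 0.0294 (-9.16 ± 0.52). All 3 genes were already low in PD, with means of 0.0324, 0.092 and 0.089 RPKM. Sertoli cell markers fell beside them (values above), and their part was not tested.

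Among 14 tested regulators of meiotic entry, 12 were lower and 2 higher, with a median of -4.63 against 0.08 over all genes. Stra8, the retinoic acid target that starts meiosis, was at 14.3, 12.5 and 13.7 RPKM in LZ and 0.0103, 0.137 and 0.0167 in RS (-8.29 ± 0.58). Bhmg1, the partner of STRA8 also known as Meiosin, was at 24.4, 17 and 21.3 RPKM and then 0.0671, 0.124 and 0.0755 (-7.75 ± 0.30). Dazl, a germ-cell translation factor, fell from 309, 218 and 273 RPKM to 2.6, 2.08 and 2.44 (-6.80 ± 0.51), and had the highest LZ level of the list. Sohlh2, a spermatogonial transcription factor, fell from 25.2, 17.6 and 27.8 RPKM to 0.353, 0.512 and 0.565 (-5.60 ± 0.29). The 2 that rose were Tcfl5 (1.80 ± 0.27) and Mael, a piRNA factor, which was at 184, 150.3 and 301 RPKM in LZ and 896, 678 and 747 in RS (1.92 ± 0.37).

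The break-forming machinery showed no rise in any of its 12 tested genes, of which 11 were lower (median -3.36). Prdm9, the methyltransferase that places meiotic breaks, was at 15.8, 9.24 and 14.4 RPKM in LZ and 0.0516, 0.0791 and 0.0701 in RS (-7.40 ± 0.40, adjusted p = 1.69e-08). Zcwpw1, which reads the marks made by PRDM9, fell from 87.8, 62.8 and 88.1 RPKM to 1.36, 2.04 and 1.37 (-5.64 ± 0.25). Atm, the kinase that answers to breaks, fell from 15.4, 10.2 and 12.9 RPKM to 0.386, 0.286 and 0.455 (-5.06 ± 0.31), and Gm960, the subunit TOPOVIBL, from 12.4, 8.18 and 8.68 to 0.339, 0.422 and 0.414 (-4.58 ± 0.29). For these 4 genes the PD means, 0.0765, 4.63, 0.347 and 0.421 RPKM, were already below every LZ library.

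Of 23 recombinases and strand invasion factors 15 were lower (65.2%, against 33.1% of all genes), 3 higher (13%, against 34.3%) and 1 within 2-fold (median -2.49). Besides Dmc1, Rad51ap2 fell from 39.2, 30.1 and 28.7 RPKM to 0.315, 0.158 and 0.271 (-7.03 ± 0.87), and Spata22 and Mnd1 changed by -5.90 ± 0.43 and -5.56 ± 0.29. The exception of largest size was Rpa1, which binds single-stranded DNA in replication as well as recombination. It was at 9.09, 7.05 and 16.2 RPKM in LZ, 77.6 ± 3 in PD and 119.5, 108 and 92 in RS (3.39 ± 0.43, adjusted p = 9.26e-06), and no RS library overlapped an LZ library. Psmc3ip (1.39 ± 0.33) and 4930432K21Rik (2.04 ± 0.45) also rose, and Rad54l was within 2-fold (0.30 ± 0.32).

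Crossover and mismatch repair genes were lower in 12 of 15 cases and higher in 2 (median -2.65). Tex11, an X-linked crossover factor, was at 48.8, 34.7 and 26.4 RPKM in LZ and 0.918, 0.512 and 0.752 in RS (-5.63 ± 0.31). Hfm1, a crossover helicase, fell from 53.1, 37.3 and 51.6 RPKM to 1.48, 1 and 1.72 (-5.09 ± 0.43). Ccnb1ip1 (HEI10), the most abundant member in LZ, was at 1739, 2863 and 2774 RPKM in LZ and 619, 139 and 137 in RS (-3.40 ± 0.82, adjusted p = 0.0021), and its RS replicate 1 stood above the other RS libraries. Prr19, another crossover factor, rose from 5.3, 4.96 and 10.2 RPKM to 27.1, 34.2 and 25.6 (2.15 ± 0.31), and Mus81, a crossover nuclease, by 2.02 ± 0.22.

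In the synaptonemal complex 6 of 8 tested genes were lower and 1 was higher (median -3.16). Sycp1, the transverse filament, fell from 322, 224 and 254 RPKM to 23.2, 13.7 and 14.4 (-3.99 ± 0.36), less than the central element gene Tex12 (-5.94 ± 0.61) and 4930447C04Rik, or Six6os1 (-6.43 ± 0.48). Syce1, a central element gene as well, went the other way, from 59.5, 50.5 and 112 RPKM in LZ through 351 ± 23 in PD to 286, 343 and 352 in RS (2.23 ± 0.25), although its change dropped to 0.84 and lost its call after quantile normalization. Meiotic cohesin and telomere attachment genes were mixed, with 6 of 14 lower (42.9%, against 33.1% of all genes), 1 higher and 7 undetermined (median -1.02). Quantile normalization gave 10 lower and 1 higher, and leaving out any of LZ replicate 1, LZ replicate 3 or RS replicate 2 gave 4 lower. Rad21l, a meiotic cohesin kleisin, was at 27.5, 20.1 and 24.9 RPKM in LZ and 0.0447, 0.035 and 0 in RS (-9.69 ± 0.61). Rec8, the other meiotic kleisin, was at 2.4, 1.86 and 2.57 RPKM in LZ, 0.514 ± 0.304 in PD and 23.4, 31.9 and 25.4 in RS, a rise of 3.56 ± 0.85 (adjusted p = 0.00186). The kleisins Rad21l and Rec8 thus ended on opposite sides of their starting levels.

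DNA replication genes were lower in 16 of 31 cases (51.6%, against 33.1% of all genes) and higher in 4 (12.9%, against 34.3%), with a median of -1.86. Mcm3, of the replicative helicase, was at 22.2, 17.6 and 23.7 RPKM in LZ and 0.186, 0.232 and 0.0758 in RS (-7.04 ± 0.45). Mcm2, of the same ring, was at 10.8, 8.36 and 7.5 RPKM and then 0.0974, 0.105 and 0.111 (-6.26 ± 0.27). Gins3, of the same helicase, fell from 5.26, 3.87 and 5.77 RPKM to 0.164, 0.12 and 0.167 (-4.95 ± 0.57), and Cdt1, a licensing factor, from 2.01, 1.62 and 1.55 to 0.0266, 0.0162 and 0.00481 (-6.16 ± 0.47). Chaf1a, a subunit of the chromatin assembly factor that deposits histones at forks, rose from 11.3, 10.6 and 19.9 RPKM to 52.2, 66.7 and 57 (2.12 ± 0.26). Mcm7 (1.21 ± 0.28), Gins4 (1.05 ± 0.20) and Rrm1 (1.42 ± 0.31) rose as well. With libraries scaled to reads in genes 1 member was higher and 19 were lower, and without LZ replicate 2 the number higher was 2.

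Replication-dependent histone genes, whose transcripts are normally made in S phase, showed the lowest median of all lists. Of 55 tested genes 49 were lower and 3 higher, with a median of -7.12, and 44 were at least 32-fold lower, against 5.55% of all genes. H4c6 was at 112, 173 and 121 RPKM in LZ and 0.118, 0.13 and 0.0965 in RS (-10.06 ± 0.45, adjusted p = 9.36e-09). H1f1, a linker histone abundant in spermatocytes, was at 1151, 1659 and 887 RPKM in LZ and 1.63, 3.36 and 1.34 in RS (-9.25 ± 0.45). H2bc14, H4c12, H1f4 and H1f2 changed by -9.29 ± 0.48, -8.55 ± 0.42, -9.55 ± 0.58 and -9.31 ± 0.53. Against them, H2ac21 rose from 0.187, 0.334 and 1.61 RPKM through a PD mean of 15.3 to 8.97, 5.93 and 5.52 (3.80 ± 0.56), and H2bc21 and H2ac20 rose by 3.34 ± 0.62 and 1.75 ± 0.52. Copies of a histone are near-identical and how reads with several matches were placed is not given in the sources used here, so that single members are uncertain.

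Among testis and replacement histones 10 of 18 were lower (55.6%, against 33.1% of all genes), 1, Macroh2a2 (2.04 ± 0.64), was higher and 7 were undetermined (median -2.41). H2bc1, the testis H2B, was at 1689, 2568 and 4300 RPKM in LZ, 1032 ± 427 in PD and 8.4, 23.9 and 6.94 in RS (-7.89 ± 0.69). H2ac1, the testis H2A, was at 556, 844 and 809 RPKM, then 111 ± 42.5, then 3.3, 4.82 and 2.5 (-7.72 ± 0.49). Both were still well above their RS level in PD. H3f4, the testis H3, fell from 983, 1758 and 1449 RPKM to 6.79, 7.25 and 4.9 (-7.77 ± 0.36), with a PD mean of 9.16. H1f6, the testis linker histone H1t, was at 128, 173 and 469 RPKM in LZ, 1084 ± 310.5 in PD and 11.1, 13.5 and 8.79 in RS (-4.31 ± 0.60). The testis histones H1f7 (0.59 ± 0.41), H2al2a (0.18 ± 0.43) and H2bl1 (0.86 ± 0.36) were undetermined. The X-linked H2ab3, outside the list and named after its values were seen, went from 0.239, 0.312 and 0.232 RPKM in LZ to 10.6, 12.3 and 13.2 in RS (5.48 ± 1.05).

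Promoter sequences are shown for the sets in which members moved together. For this 6 motifs were searched on both strands of the RefSeq promoters of GRCm38.p6 (250 bases before to 50 after the start, 27025 promoters, of which 10391 belong to tested genes): the CRE (TGACGTCA), the X-box bound by RFX factors (the 10 letters in capitals that 1700034J05Rik and Gm42372 share below), an E2F site (TTTCCCGC), the STRA8 motif (CNCCTCAG), the TATA box (TATAAA) and the CCAAT box (CCAAT). No motif contains the letters of another. A match is a description of letters, not of a binding event. TATAAA was in 32 of 51 promoters of the replication-dependent histones (62.7%), against 14.2% of all promoters and 7.69% of those of tested genes, and CCAAT in 43 of 51 (84.3%) against 38% and 40.1%. The E2F site was in 6 of 26 promoters of replication genes (23.1%) and 3 of 19 of recombinases (15.8%), against 1.11% and 2.03%. Over all genes called, it was in 109 of 3469 promoters of lower genes (3.14%) and 44 of 3562 of higher genes (1.24%). The CRE was in 2.95% of higher and 3.2% of lower genes, and the STRA8 motif in 8.7% and 10.3%. Shown here are 150 bases before the start of the replication-dependent histones H1f4 (chr13:23622559-23622708, minus strand) and H3c10 (chr13:21717478-21717627, plus strand), chosen as the 2 with the largest fall that hold both TATAAA and CCAAT in this stretch. With them stand the replication gene Gins3 (chr8:95633409-95633558, plus strand) and the marker Sycp3 (chr10:88459437-88459586, plus strand), each with an E2F site. Sequences run 5′ to 3′ on the gene's strand, and capitals mark matches to any of the 6 motifs.
H1f4: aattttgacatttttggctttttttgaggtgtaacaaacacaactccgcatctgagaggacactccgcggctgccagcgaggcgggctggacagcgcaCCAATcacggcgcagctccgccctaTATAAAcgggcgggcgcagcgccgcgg
H3c10: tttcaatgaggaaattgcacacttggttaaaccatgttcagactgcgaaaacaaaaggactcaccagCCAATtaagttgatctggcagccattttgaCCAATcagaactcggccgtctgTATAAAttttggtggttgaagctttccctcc
Gins3: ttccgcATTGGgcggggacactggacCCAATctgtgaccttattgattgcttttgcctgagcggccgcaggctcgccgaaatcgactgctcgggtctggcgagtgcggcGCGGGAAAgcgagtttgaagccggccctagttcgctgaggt
Sycp3: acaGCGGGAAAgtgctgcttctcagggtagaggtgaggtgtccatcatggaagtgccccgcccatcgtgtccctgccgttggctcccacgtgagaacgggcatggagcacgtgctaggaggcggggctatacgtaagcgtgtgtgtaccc
In H1f4 the TATA box begins 27 bases and the CCAAT box 52 bases before the start, and in H3c10 the TATA box begins 31 bases and the CCAAT boxes 83 and 53 bases before it. H3c10 went from 16.2, 33.1 and 16.9 RPKM in LZ to 0.0451, 0 and 0.0367 in RS (-9.46 ± 0.65).

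The X chromosome ended meiosis lower than the autosomes. Of 527 tested X-linked genes, 287 (54.5%) were lower in RS, 147 (27.9%) higher, 7 within 2-fold and 86 undetermined, with a median of -1.86. On the 19 autosomes taken one by one, 27% to 36.8% of genes were lower and 30.1% to 42% higher. Loss was also deeper: 150 X-linked genes (28.5%) were at least 32-fold lower, against 577 of 12688 autosomal genes (4.55%). At the other end, 37 X-linked genes (7.02%) were at least 32-fold higher, against 281 autosomal genes (2.21%). The latter count depends on the setting: it was 545 (4.29%) without LZ replicate 3, with 39 (7.4%) on the X, and 562 (4.43%) after quantile normalization, with 43 (8.16%) on the X. At the median an X-linked gene in RS stood at 27% of its LZ level and an autosomal gene at 107%. Without LZ replicate 3 the X-linked counts were 285 lower and 143 higher. Without the filter on low values 543 X-linked genes were lower, out of a larger set than these 527. That set held all genes with a read in any of the 15 libraries.

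**Figure D2:**
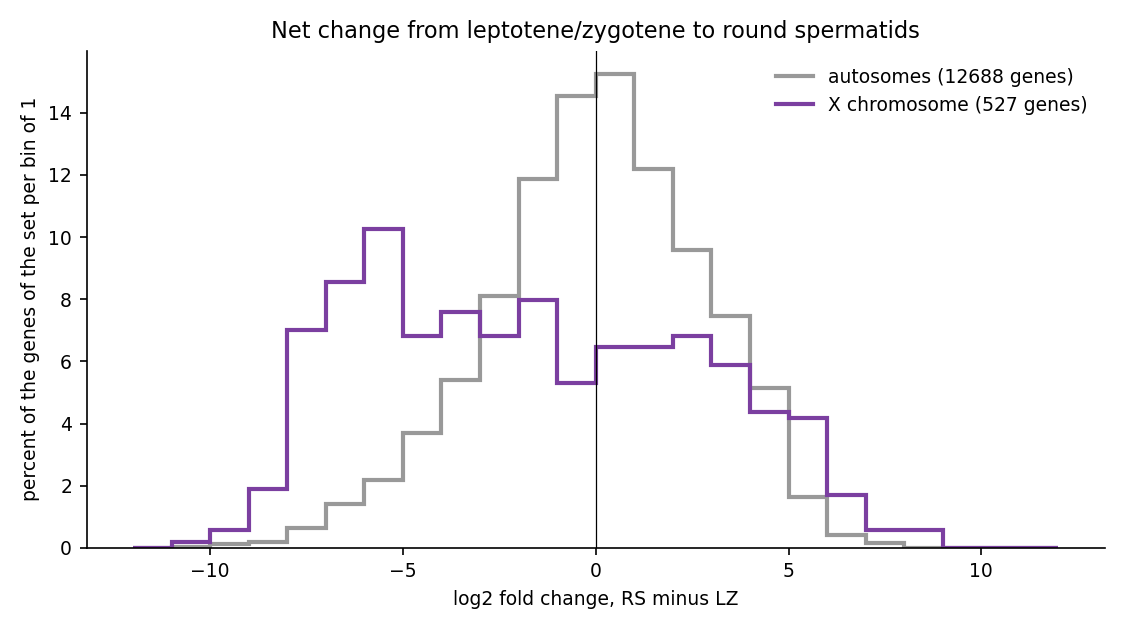
Distribution of log2 fold changes, RS minus LZ, for 527 X-linked genes and 12688 autosomal genes; the vertical axis is the percent of each set in bins of 1 log2 unit. Autosomal genes peak near 0, and X-linked genes spread from deep losses (28.5% at least 32-fold lower) to large gains (7.02% at least 32-fold higher).

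By library, the median level of tested X-linked genes was 73.5%, 63.2% and 41.3% of that of autosomal genes in LZ, 1.01%, 1.16% and 1.77% in PD, and 25%, 21.9% and 27.2% in RS. The RS libraries all lay below the LZ libraries, with LZ replicate 3 the lowest of its group. In log2 units the ratio was -0.79 ± 0.43 in LZ and -2.02 ± 0.16 in RS (SD, n = 3 each). The difference of -1.23 had p = 0.1 in a two-sided exact permutation test, the smallest p that 3 against 3 libraries allow. Without the filter on low values, over a larger set of genes, the difference was -2.35. The juvenile round spermatid library had 39.9%. The RS median thus lay between PD and LZ, and 284 of the 527 (53.9%) had PD means at least 4-fold below both LZ and RS, against 795 autosomal genes (6.27%). Of those 284 dipping genes, 141 were still lower in RS than LZ, 54 were higher, 6 within 2-fold and 83 undetermined.

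**Figure D3:**
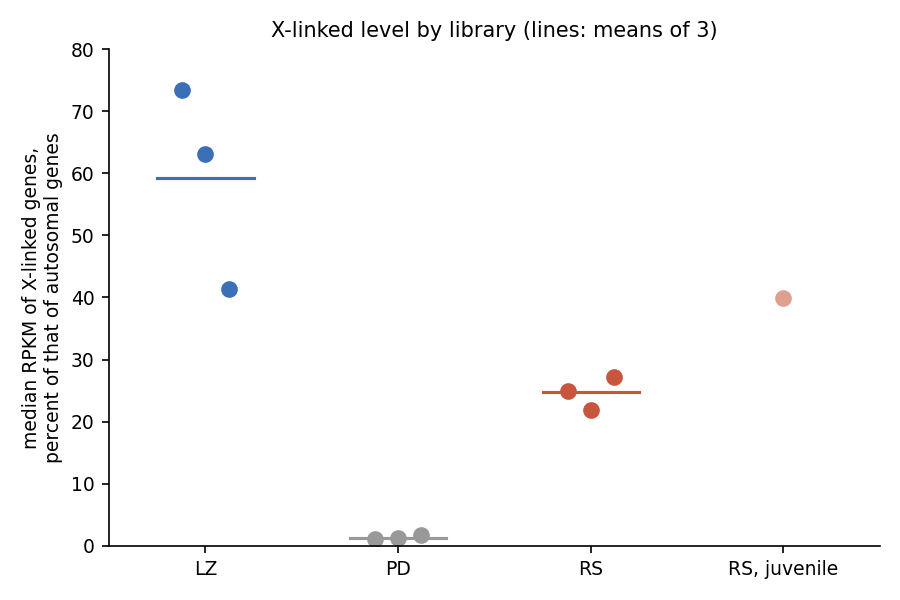
Median RPKM of tested X-linked genes as a percent of the median of tested autosomal genes in each library (points; lines are means of 3) of LZ, PD, RS and the single juvenile round spermatid library. The RS libraries (21.9% to 27.2%) lie between PD (1.01% to 1.77%) and LZ (41.3% to 73.5%).

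X-linked housekeeping genes mostly ended lower. Of 56 tested X-linked housekeeping genes 46 were lower, 2 higher and 3 within 2-fold (median -3.54), where 33.1% of all genes were lower. After Hprt the largest falls were those of Rpl39, a ribosomal protein, from 14.9, 15.2 and 8.26 RPKM to 0, 0.086 and 0.00526 (-8.98 ± 0.97, adjusted p = 2.36e-06), and Atp6ap1, a proton pump subunit, from 16.6, 13.6 and 13.8 to 0.0949, 0.132 and 0.0474 (-7.27 ± 0.45). Xiap, an inhibitor of cell death, fell from 3.41, 2.09 and 1.61 RPKM to 0.00196, 0.00766 and 0.00877 (-7.16 ± 0.56). The 2 that rose were Ribc1, whose product belongs to ciliary microtubules, from 7.21, 5.49 and 5.64 RPKM to 33.3, 46.7 and 43 (2.74 ± 0.69), and Msl3 (2.44 ± 0.36).

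Germ-cell X-linked genes of early meiosis were lower in 14 of 17 cases and higher in 2 (median -4.98). Tktl1, a transketolase-like enzyme, fell from 55.1, 35.7 and 28.9 RPKM to 0.431, 0.631 and 0.571 (-6.13 ± 0.45), and Luzp4 and Tex13b changed by -6.33 ± 0.34 and -5.94 ± 0.68. Rhox1 was at 2.38, 1.94 and 1.06 RPKM in LZ and had no read in the RS libraries. Fthl17a, a ferritin-like gene, rose from 0.771, 0.426 and 0.749 RPKM to 13.4, 12.5 and 15.1 (4.42 ± 0.84), and Tex13a rose by 2.31 ± 0.42. Among other X-linked falls of genes at 10 RPKM or more in LZ were Hdac6, a cytoplasmic deacetylase (13.3, 9.36 and 10.3 RPKM to 0.0127, 0.0811 and 0.0298, -7.96 ± 0.55), Ccnb3, a meiotic cyclin (53.9, 35 and 26.9 RPKM to 0.408, 0.291 and 0.426, -6.61 ± 0.33), and Tsc22d3 (-7.20 ± 0.61).

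The X-linked genes within 2-fold numbered 7 (5 without LZ replicate 3), and all 7 are named here because their number is small, after their values were seen: Emd, Kdm5c, Sh3kbp1, Tex28, Tmem185a, Ubl4a and Xk. Kdm5c, a histone H3K4 demethylase, was at 4.21, 3.62 and 2.72 RPKM in LZ, 0.0705 ± 0.0133 in PD and 2.34, 3.62 and 2.89 in RS (-0.25 ± 0.33). Tmem185a was at 11.4, 7.88 and 5.73 RPKM, then 0.146 ± 0.0425, then 7.75, 10.1 and 8.03 (0.10 ± 0.29). Emd, which encodes emerin of the nuclear envelope, was at 4.58, 3.41 and 2.74 RPKM, then 0.355 ± 0.127, then 2.86, 3.33 and 2.59 (-0.26 ± 0.33). In all 7 the RS range overlapped the LZ range, with the PD mean below both. Later levels differed, and the EES mean was 0.187 RPKM for Kdm5c and 4.14 for Emd.

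Spermatid genes of the X and Y chromosomes rose in 21 of 37 cases (56.8%, against 34.3% of all genes), fell in 8 (21.6%, against 33.1%) and were undetermined in 8 (median 2.14). Slxl1, an X-linked multicopy regulator of spermatids, went from 0.37, 0.311 and 0.58 RPKM to 10.4, 10.1 and 9.9 (4.61 ± 0.53). Sly, its Y-linked counterpart, went from 0.0276, 0.0164 and 0.0402 RPKM to 1.74, 0.975 and 1.31 (5.16 ± 0.52), and the Y-linked Ssty2 from 0.0171, 0.0325 and 0.0995 to 2.43, 2.06 and 2.94 (5.62 ± 0.94). Akap14 rose by 4.34 ± 0.91 and Spaca5 by 4.45 ± 1.28. The 8 that fell were Uba1y, Zfy1, Zfy2, Rbmy, Fmr1nb, Magea5, Magea6 and Magea8. Zfy2, a Y-linked zinc finger gene of the meiotic checkpoint, was at 28.2, 21.8 and 11.9 RPKM in LZ, 0.0991 ± 0.0408 in PD and 1.64, 0.862 and 1.61 in RS (-3.87 ± 0.53), and Magea5 changed by -7.76 ± 0.52. Reads of these multicopy families can be placed on the wrong copy.

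Broadly expressed Y-linked genes fell in 4 of 5 cases and rose in none (median -2.68). Ddx3y, an RNA helicase, was at 12.9, 8.55 and 6.9 RPKM in LZ and 0.221, 0.128 and 0.266 in RS (-5.47 ± 0.38). Usp9y, a deubiquitinase, was at 28.4, 19.3 and 13.5 RPKM and then 2.26, 1.14 and 2.73 (-3.34 ± 0.36), and Uba1y, a ubiquitin-activating enzyme, at 42.3, 29.3 and 26 and then 5.38, 6.45 and 6.65 (-2.37 ± 0.64). Uba1y had a PD mean of 0.172 RPKM, so that its RS level lay above PD and below LZ. Of all 35 tested Y-linked genes 20 were higher (57.1%, against 34.3% of all genes) and 12 lower (34.3%, near the 33.1% of all genes).

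Many X-linked housekeeping genes have an autosomal copy used in the testis, such as an intronless retrocopy. Of 12 tested X-linked parents 11 were lower in RS and 1, Ubl4a, was within 2-fold, and all 12 had PD means under 1 RPKM. Of the 13 copies, counting Gk2, whose X-linked parent Gk was not tested, 7 were higher and 6 undetermined. Among the undetermined, Pdha2 passed as higher with median centring (1.35) and with the 6 LZ and RS libraries only (1.14). Rpl36al passed as higher with median centring (1.15) and without LZ replicate 3 (1.13). None of the 13 copies was lower on this scale. Rbmxl2 passed as lower after quantile normalization (-1.84) and with scaling to reads in genes (-1.37), and Cstf2t after quantile normalization (-1.37). Zfx and its copy Zfa-ps, listed as parent and testis copy but left out of these pairs, were both lower (-3.36 and -1.40). Ubl4a passed as higher after quantile normalization (1.01) and lost its within-2-fold call without LZ replicate 1 or 2 or RS replicate 1 or 3, with median centring and with the 6 LZ and RS libraries only. The ribosomal protein gene Rpl39 had all but vanished in RS, as given above, whereas its copy Rpl39l on chromosome 16 went from 73.3, 71.5 and 143 RPKM in LZ to 543, 353 and 350.4 in RS (2.16 ± 0.28, adjusted p = 1.05e-05). Rpl10 fell from 6.71, 4.66 and 4.23 RPKM to 0.203, 0.17 and 0.103 (-4.97 ± 0.58) and its copy Rpl10l rose from 51.4, 47.8 and 120.4 to 302, 242 and 232 (1.95 ± 0.42). After quantile normalization the changes of Rpl39l and Rpl10l were 0.71 and 0.52 and no longer passed. Pgk1, which encodes the glycolytic enzyme phosphoglycerate kinase, was at 1.73, 1.48 and 1.17 RPKM in LZ and 0.165, 0.103 and 0.158 in RS (-3.28 ± 0.30). Its copy Pgk2 was at 23.7, 21.1 and 48.8 RPKM and then 365, 325 and 362 (3.59 ± 0.30). Cetn2 and Cetn1, the centrins of the centriole, changed by -2.02 ± 0.37 and 4.28 ± 0.42, and Prps1 and Prps1l1 by -1.68 ± 0.40 and 4.45 ± 0.63.

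Parents did not all stay silent. Prps1, an enzyme of nucleotide synthesis, was at 18.1, 13.7 and 9.09 RPKM in LZ, 0.159 ± 0.0209 in PD and 3.37, 4.85 and 4.18 in RS. Cstf2, of the polyadenylation machinery, was at 13.9, 9.61 and 9.72 RPKM, then 0.143 ± 0.0754, then 3.32, 3.82 and 3.92 (-1.57 ± 0.45), while its copy Cstf2t was undetermined (-0.36 ± 0.38). Utp14a, of ribosome assembly, was at 3.99, 2.81 and 1.98 RPKM, then 0.029 ± 0.00795, then 0.671, 0.871 and 0.773 (-1.86 ± 0.56). Each of these came back from PD to a part of its LZ level, whereas in RS the parents Pgk1, Pdha1, Rpl10, Rpl39, G6pdx and Rpl36a stood below 10% of theirs. Rbmx, an RNA-binding protein gene, passed narrowly (-2.02 ± 0.87, adjusted p = 0.0495) and lost its call without any 1 of the 6 libraries, with changes of -2.31 to -1.75.

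**Figure D4:**
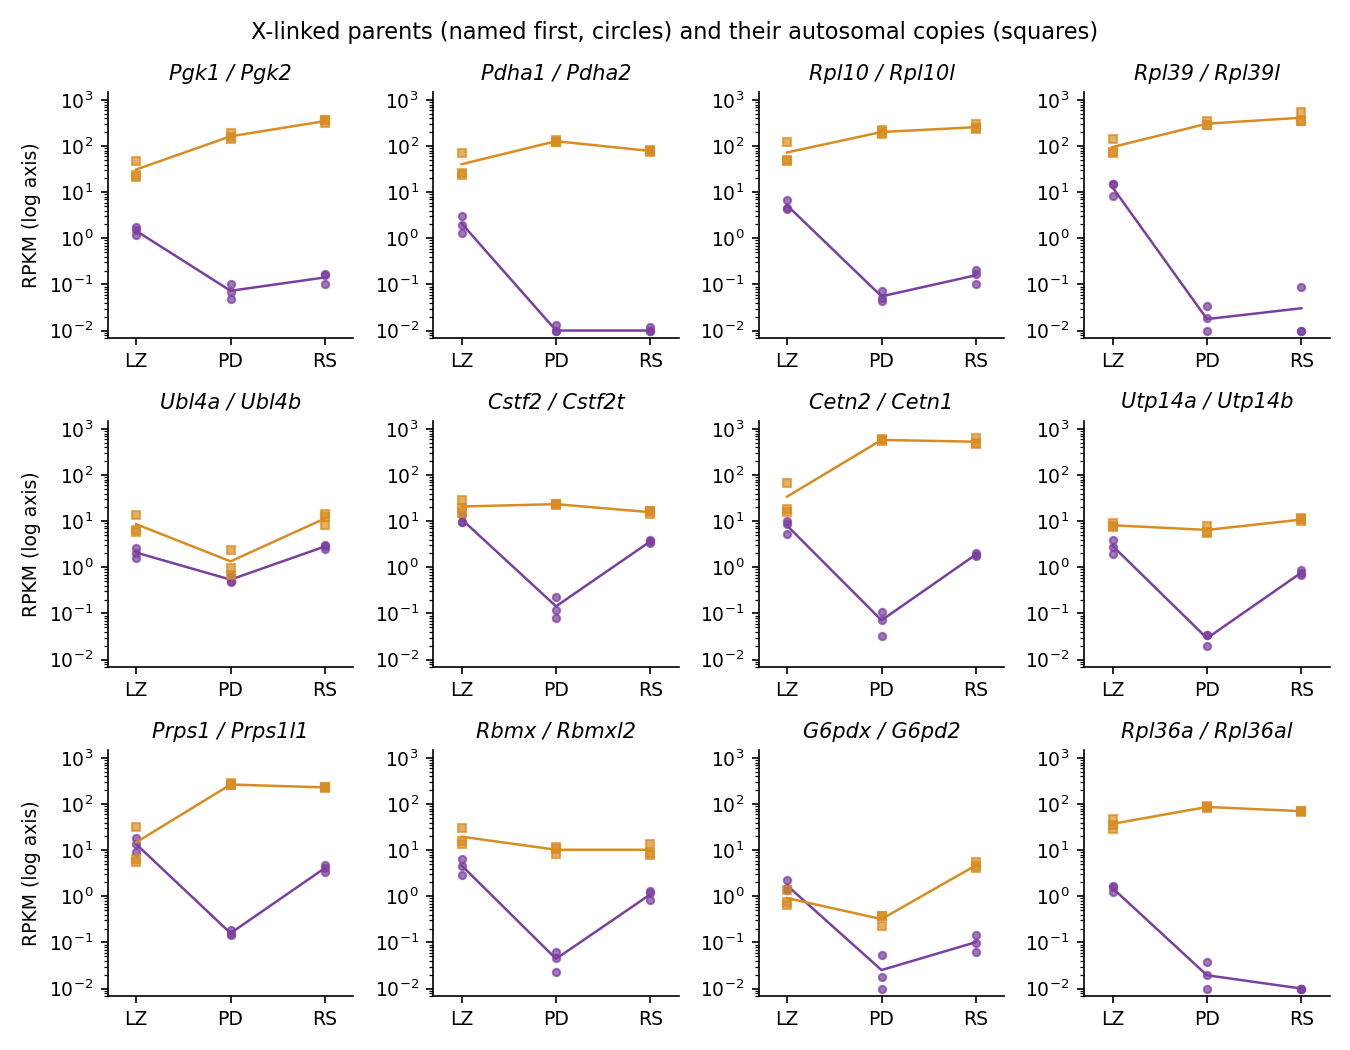
RPKM (log axis) of 12 X-linked parents (circles) and their autosomal copies (squares) in the 3 LZ, 3 PD and 3 RS libraries; lines join the means and values under 0.01 are drawn at 0.01. All 12 parents dip under a mean of 1 RPKM in PD, and 11 end lower in RS than in LZ. Of the copies shown, Pgk2, Rpl10l, Rpl39l, Cetn1, Prps1l1 and G6pd2 end higher.

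For Rpl39 and Rpl39l, which encode closely related ribosomal proteins on different chromosomes, the 150 bases before the start are shown because their changes lie furthest apart among the X-linked pairs. They lie at chrX:37085223-37085372 (minus strand) and chr16:10170078-10170227 (plus strand), from RefSeq, GRCm38.p6, and capitals mark matches to the 6 motifs.
Rpl39: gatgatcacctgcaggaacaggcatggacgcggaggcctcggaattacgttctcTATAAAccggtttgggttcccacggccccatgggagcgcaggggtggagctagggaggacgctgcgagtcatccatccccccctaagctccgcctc
Rpl39l: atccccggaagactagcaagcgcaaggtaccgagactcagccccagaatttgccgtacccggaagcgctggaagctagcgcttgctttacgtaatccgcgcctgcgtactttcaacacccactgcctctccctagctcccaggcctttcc
The Rpl39 stretch holds TATAAA 96 bases before the start, and none of the 6 motifs is in the Rpl39l stretch. TATAAA was in 10.7% of promoters of lower and 8.85% of higher X-linked genes.

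Autosomal parents were divided. Of 16, 9 were lower, 4 higher and 3 undetermined, and 12 of their 16 copies were higher, 3 lower and 1 undetermined. Over all genes 33.1% were lower and 34.3% higher. Hspa8, the constitutive heat shock protein, fell from 117, 90.7 and 99 RPKM to 6.68, 5.76 and 5.46 (-4.09 ± 0.42), and its testis relative Hspa2 rose from 119, 112 and 361 to 668, 768 and 629 (2.02 ± 0.75, adjusted p = 0.0263). The Hspa2 call was lost without LZ replicate 1 or 2 or without RS replicate 1 or 2, with changes of 1.73 to 2.04, after quantile normalization (0.93) and with scaling to reads in genes (1.55). Gapdh, the glycolytic enzyme, fell from 2.37, 1.97 and 2.04 RPKM to 0.206, 0.272 and 0.215 (-3.16 ± 0.29), and the sperm form Gapdhs rose from 15.9, 19.99 and 25.7 to 36.2, 55.6 and 54.5 (1.25 ± 0.36). Gapdhs lost its call after quantile normalization (0.46) and with scaling to reads in genes (0.77). Ldha, in contrast, rose as its testis form did. It was at 8.87, 8.54 and 58.3 RPKM in LZ and 282, 363 and 316 in RS (4.28 ± 0.57). Ldhc was at 91.3, 77.2 and 461 RPKM in LZ and 2438, 2724 and 2589 in RS (4.12 ± 0.49). For Ldha and Ldhc LZ replicate 3 was the highest LZ library. The 3 copies that fell were H1f6, H2bc1 and Taf7l, the last of which is X-linked and went from 143, 95 and 97.3 RPKM to 8.8, 8.17 and 8.85 (-3.67 ± 0.81).

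Few of the genes that dipped in PD were measured to be back at their LZ level in RS. Of 1092 genes with a PD mean at least 4-fold below both LZ and RS, 57 were within 2-fold of LZ in RS, 296 were higher, 313 lower and 426 undetermined. Over all genes 7.9% were within 2-fold, 34.3% higher and 33.1% lower, each a larger share than among these 1092. The 12 genes with the deepest dip among those within 2-fold and at 10 RPKM or more in LZ included Rpain, Rbm7, 1700042G07Rik, Tasp1, Nbr1, Csnk1g2, Ccdc91, Osbp, Etf1, Dcaf1 and Oga. Rpain, which carries replication protein A to the nucleus (chromosome 11, 70970130 to 70977933), was at 13, 9.82 and 13.1 RPKM in LZ, 0.807 ± 0.162 in PD and 11.4, 13.5 and 13.2 in RS (0.10 ± 0.34). Rbm7, of the nuclear exosome targeting complex (chromosome 9, 48488697 to 48495330), was at 20.2, 17.6 and 19.1 RPKM, then 1.6 ± 0.202, then 20.3, 17.1 and 20.4 (0.02 ± 0.42). In both the RS and LZ libraries overlapped, and the PD mean lay below them. The within-2-fold call of Rbm7 was lost when any 1 of the 6 libraries was left out (changes of -0.03 to 0.10), with scaling to reads in genes (-0.45) and after quantile normalization (-0.91). That of Rpain was lost without LZ replicate 1, LZ replicate 3 or RS replicate 1 (0.16 to 0.17) and with scaling to reads in genes (-0.38).

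Several of the 12 did not stop at that level. Nbr1, a receptor of selective autophagy, was at 24.2, 19.2 and 29.4 RPKM in LZ, 5.68 on average in PD and 24.6, 26.9 and 32.8 in RS, and at a mean of 412 in EES. Csnk1g2, a casein kinase, had RS libraries at 17.1, 23.8 and 22.1 RPKM and an EES mean of 345, and Ccdc91, of trans-Golgi transport, 13.7, 19.2 and 22 and 574. Etf1, the translation release factor, and Oga, which removes O-GlcNAc, stayed nearer their RS levels, with EES means of 41 and 17.2 RPKM. Summed protamine and transition protein transcripts, given above, were also lower in PD than in LZ and RS. The part of elongating spermatid RNA in the dips was not tested. After quantile normalization all 12 changes were negative, from -1.92 to -0.28, 4 (1700042G07Rik, Etf1, Dcaf1 and Oga) passed as lower and 5 others lost the within-2-fold call. Median centring and scaling to reads in genes each ended that call for 7 of the 12.

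Genes of the future sperm made up the other side of the comparison. Acrosome genes were higher in 30 of 33 cases and lower in none (median 3.85, where 34.3% of all genes were higher). Hipk4, a kinase of sperm head shaping, was at 0.886, 0.975 and 1.96 RPKM in LZ and 46.9, 55 and 51 in RS (5.40 ± 0.81, adjusted p = 4.11e-05). Dcst2, a sperm membrane protein of fertilization, rose from 0.582, 0.726 and 0.847 RPKM to 16.8, 26.8 and 21.9 (4.90 ± 0.64). For Hipk4, Dcst2 and Acrv1 the PD means were 0.849, 0.586 and 1.14 RPKM, below their LZ means. Other members were instead high in PD. Spink2, an acrosomal protease inhibitor, was at 12.5, 10.2 and 58.5 RPKM in LZ, 534 ± 31.9 in PD and 526, 548 and 527 in RS (4.77 ± 0.72). Zpbp2, a zona-binding protein, was at 9.79, 6.65 and 26.8 RPKM, then 236 ± 15.9, then 324, 303 and 299.7 (4.68 ± 0.97). For both, the highest LZ library was replicate 3, which also had the highest LZ sum of Piwil1, Ccna1, Tdrd6 and Ldhc.

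Genes of the axoneme, the microtubule core of the flagellum, rose in 40 of 41 cases (median 3.66), and fell in none. Dnaic2, a dynein intermediate chain, was at 1.04, 0.675 and 2.14 RPKM in LZ and 66.6, 87.5 and 67.9 in RS (5.99 ± 0.42, adjusted p = 7.28e-08). Tekt4, a tektin of flagellar microtubules, went from 5.37, 4.19 and 11.1 RPKM to 258, 292 and 282 (5.46 ± 1.03). Its relative Tekt3 went from 3.79, 2.81 and 12.2 RPKM to 178, 222 and 195 (5.28 ± 0.83). Cfap58 rose from 1.96, 1.5 and 4.14 RPKM to 51.5, 51.7 and 84.5 (4.72 ± 0.87). Foxj1, the master transcription factor of motile cilia (chromosome 11, 116330704 to 116335499), was at 1.33, 0.975 and 1.47 RPKM in LZ, 1.21 ± 0.447 in PD and 70.5, 71.7 and 59.8 in RS (5.75 ± 0.70, adjusted p = 6.41e-06), with PD at the LZ level. Of fibrous sheath and outer dense fibre genes 20 of 22 were higher and none lower (median 2.67). Tssk4, a spermatid kinase, rose from 1.48, 1.98 and 3.81 RPKM to 49.3, 71.5 and 70.7 (4.81 ± 0.81), and Odf4 from 8.51, 8.38 and 48.5 to 191, 224 and 216 (3.79 ± 0.49). The protamine and transition protein list did not follow, with 1 of 5 higher, Prm3 (1.18 ± 0.46, adjusted p = 0.0328), and 4 undetermined. Quantile normalization gave 3 lower and none higher. Prm3 also lost its call with scaling to reads in genes (0.71) and without LZ replicate 1 or 2 or RS replicate 2 or 3 (1.06 to 1.13).

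Other large rises were of varied function. The 12 largest among named protein-coding genes that reached 32 RPKM in RS, with no overlap between groups, were Speer4c, Dydc1, Dnaic2, Ccna1, Foxj1, Prss46, Prr22, Zdhhc11, Tekt4, Fam24a, Cfap161 and Glipr1l1, with changes from 6.79 ± 0.54 down to 5.42 ± 1.23. Dydc1, a gene of the DPY30 domain family, was at 1.1, 0.834 and 2.33 RPKM in LZ and 80.2, 110.2 and 95.4 in RS. Prss46, a serine protease, was at 2.42, 1.48 and 3.63 RPKM and 112, 131 and 122, and Zdhhc11, a palmitoyl transferase gene, at 0.904, 0.593 and 1.4 and 46.3, 41.8 and 45.1. Of the 12, Foxj1, Prr22, Zdhhc11, Fam24a and Speer4c had PD means under 2 RPKM, and Ccna1, Cfap161 and Dnaic2 had PD means of 112, 50.9 and 30.04.

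**Figure D5:**
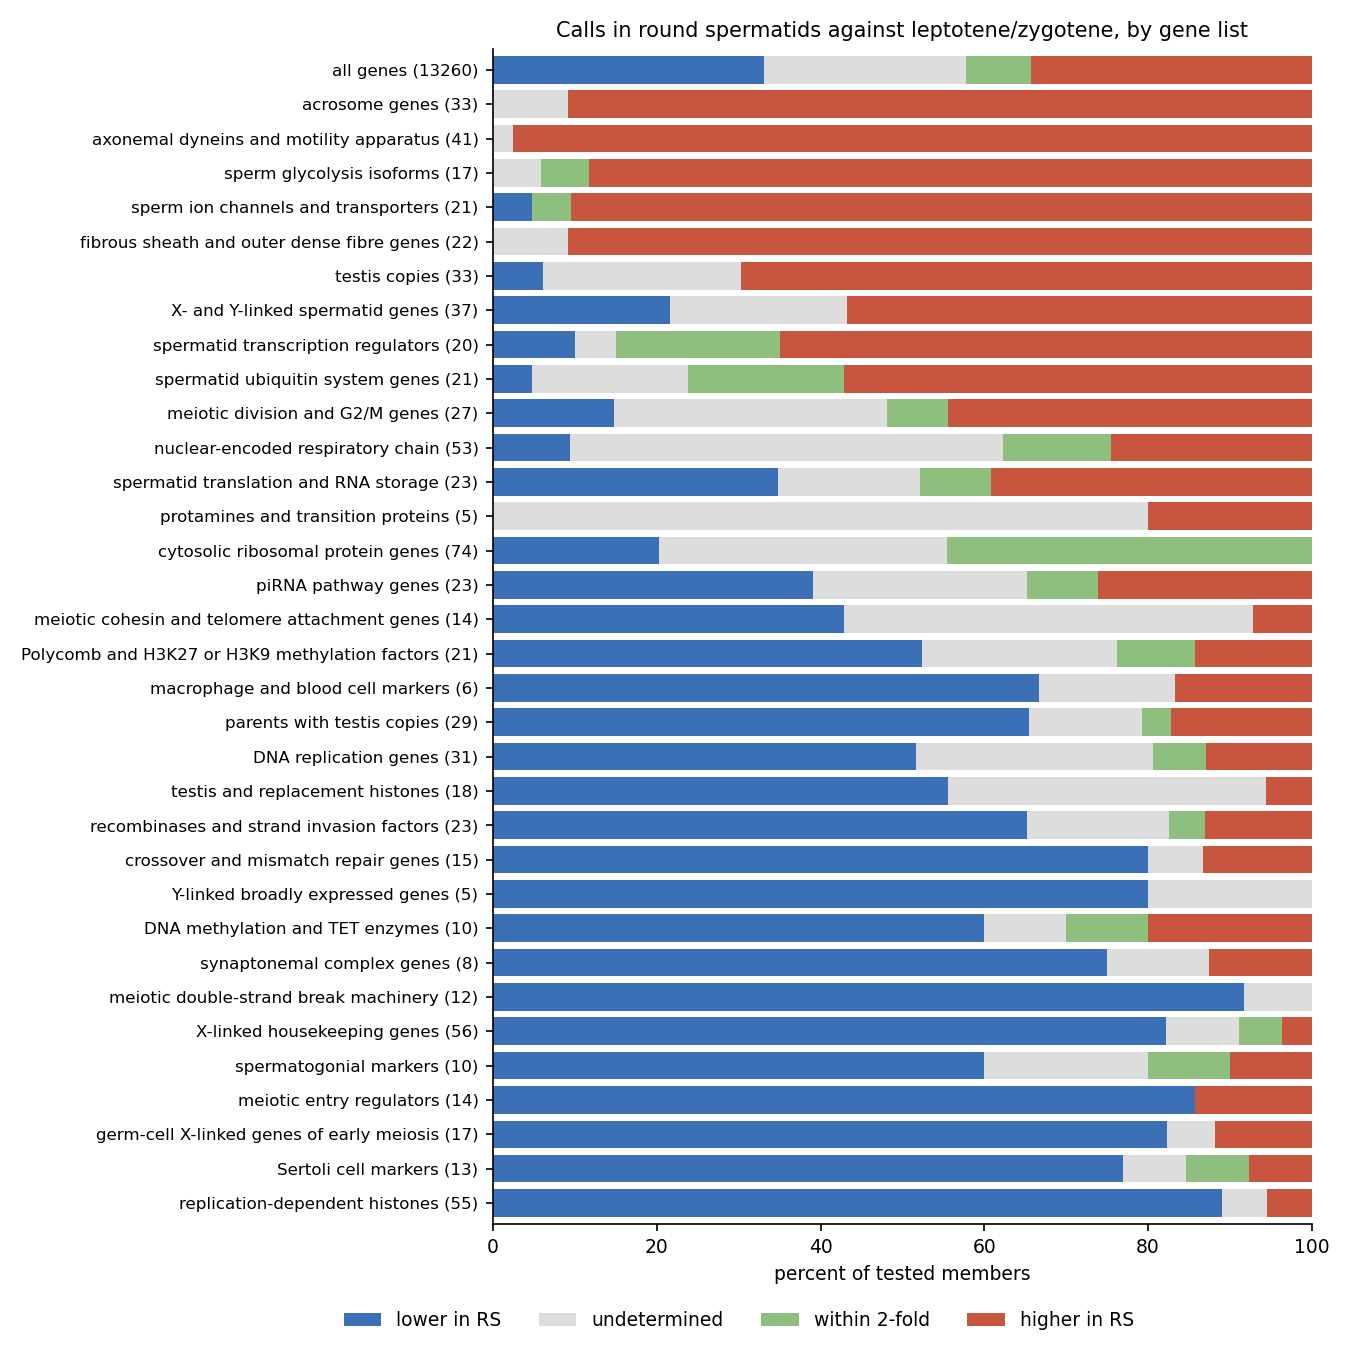
Share of the tested members of each gene list (number tested in parentheses, lists of 5 or more) that was lower in RS, undetermined, within 2-fold or higher in RS; the top bar is all 13260 genes. Lists run by median change from acrosome genes (3.85) to replication-dependent histones (-7.12). Axonemal genes hold the largest share higher (97.6%), the double-strand break machinery the largest share lower (91.7%), and cytosolic ribosomal protein genes the largest share within 2-fold (44.6%).

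Energy and ion transport genes of sperm rose alike. Sperm glycolysis isoforms were higher in 15 of 17 cases and lower in none (median 3.59). Gk2, a testis glycerol kinase, rose from 18.6, 15.7 and 70.2 RPKM to 779, 700.2 and 688 (4.72 ± 0.76), Slc2a5, a fructose transporter, from 4.37, 4.89 and 17.8 to 137, 233 and 173 (4.61 ± 0.51), and Ldhal6b and Pgam2 by 4.46 ± 0.61 and 4.22 ± 0.40. Ion channels and transporters were higher in 19 of 21 cases and lower in 1 (median 3.44). Catsperz, a subunit of the sperm calcium channel, was at 9.18, 8.48 and 44.3 RPKM in LZ, 436 ± 38 in PD and 396, 438 and 405 in RS (4.77 ± 0.56). Catsper4, a pore subunit of that channel, was at 1.2, 1.01 and 2.36 RPKM, then 1.02 ± 0.608, then 28.6, 42.3 and 33.9 (4.59 ± 0.79). These 2 subunits stood far apart in PD. Kcnu1, the sperm potassium channel, rose from 0.748, 1.04 and 1.69 RPKM to 29, 29.3 and 30.6 (4.74 ± 0.67). The 1 that fell, Pkd2l1 (-1.26 ± 0.44), lost its call without LZ replicate 3 (-0.67), without RS replicate 1 (-1.01), after quantile normalization (-0.77) and with a pseudocount of 1 RPKM (-0.78).

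Among 20 transcription regulators of spermatids 13 were higher (65%, against 34.3% of all genes), 2 lower and 4 within 2-fold (median 1.99). Nutm1, a testis nuclear protein, rose from 1.99, 1.75 and 1.88 RPKM to 26.1, 39.2 and 30.7 (4.07 ± 0.77), and Sox5 from 0.324, 0.256 and 0.658 to 4.59, 5.45 and 5.6 (3.74 ± 0.68). Crem and Rfx2 are added here after their values were seen. Crem, which activates genes of spermatids, was at 5.45, 4.92 and 10.1 RPKM in LZ and 43, 33.4 and 44.3 in RS (2.62 ± 0.37). Rfx2, which binds X-boxes in genes of cilia, was at 6.73, 7.21 and 15.2 RPKM and then 34.7, 55.8 and 47.8 (2.32 ± 0.29). Taf7l and Zfy2 fell, and both lie on sex chromosomes. Brdt (0.16 ± 0.23), Sox30 (0.37 ± 0.22), Rfx3 (0.33 ± 0.23) and Atf1 (-0.34 ± 0.22) were within 2-fold. The X-box was in 51 of 3562 promoters of higher genes (1.43%), 7 of 3469 of lower genes (0.202%) and 0.555% of all promoters. The letters were in none of the promoters of the axonemal list. Under the limits given for H1f4, the 2 protein-coding genes with the largest rise and an X-box in the 150 bases before the start were picked. They were 1700034J05Rik (chr6:146954422-146954571, minus strand, 4.94 ± 0.32) and Gm42372 (chr7:16982933-16983082, plus strand, 4.79 ± 0.60), shown with matches in capitals.
1700034J05Rik: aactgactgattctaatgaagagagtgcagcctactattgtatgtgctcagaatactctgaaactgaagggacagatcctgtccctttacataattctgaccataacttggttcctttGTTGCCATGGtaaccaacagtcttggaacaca
Gm42372: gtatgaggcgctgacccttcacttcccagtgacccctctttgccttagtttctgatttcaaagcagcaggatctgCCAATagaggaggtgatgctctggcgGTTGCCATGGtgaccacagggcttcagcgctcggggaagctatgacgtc
The X-box begins 32 bases before the start in the former and 49 bases before it in the latter.

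Of 27 genes of meiotic division 12 were higher (44.4%, against 34.3% of all genes), 4 lower and 2 within 2-fold (median 1.28). Ccna1, the cyclin A of male meiosis, was at 3.56, 3.56 and 8.47 RPKM in LZ, 112 ± 24.3 in PD and 316, 255 and 251 in RS (5.84 ± 0.34), and Plk1, a mitotic kinase, rose by 3.70 ± 0.71. Aurka and Aurkc, kinases of the spindle and centromere, rose by 3.07 ± 0.40 and 3.80 ± 0.77. Quantile normalization gave 12 higher and 8 lower, and scaling to reads in genes 11 and 6. Spermatid ubiquitin genes were higher in 12 of 21 cases (57.1%), lower in 1 and within 2-fold in 4 (median 1.45), and quantile normalization gave 11 higher and 5 lower. Fbxw10 rose from 2.86, 2.34 and 8.93 RPKM to 73.7, 113 and 98.8 (4.58 ± 0.38), and Klhl10, an adaptor of a spermatid ubiquitin ligase, from 7.07, 6.73 and 14.5 to 70.8, 93.5 and 94.2 (3.27 ± 0.37). Rnf8, which ubiquitinates histones on the silenced sex chromosomes, fell from 6.37, 5.71 and 7.86 RPKM to 1.03, 1.52 and 1.16 (-2.42 ± 0.28).

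Cytosolic ribosomal protein genes held the largest share within 2-fold of any list of 5 or more. Of 74 tested, 33 were within 2-fold (44.6%, against 7.9% of all genes), 15 were lower, 26 undetermined and none higher, with a median of -0.52. The call depends on the scale: 36 were lower with libraries scaled to reads in genes and 58 after quantile normalization. Rpl10a fell furthest, from 16.9, 15.4 and 20.7 RPKM to 0.717, 0.901 and 0.72 (-4.48 ± 0.27), and Rpl14 went from 54.5, 51 and 54.8 to 5.47, 4.15 and 3.44 (-3.64 ± 0.34), Rpl22 and Rps12 changing by -2.48 ± 0.24 and -1.77 ± 0.21. Ribosomal protein genes have many processed copies in the genome, so single values are uncertain. The nuclear-encoded respiratory chain had 13 of 53 genes higher (24.5%), 5 lower (9.43%) and 7 within 2-fold (median 0.49). Of all genes 34.3% were higher and 33.1% lower. The balance of the chain turned to 3 higher and 19 lower after quantile normalization and to 7 and 8 with scaling to reads in genes. Without LZ replicate 2 it was 8 and 5. Cox8c, a testis subunit of cytochrome oxidase, rose from 16.3, 18.2 and 103 RPKM to 265, 388 and 265 (3.26 ± 0.60), and Ndufa4 fell from 20.4, 20.5 and 15.8 to 0.51, 0.525 and 0.464 (-5.20 ± 0.44).

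Lists of RNA and chromatin regulators held genes of both directions, where 34.3% of all genes were higher and 33.1% lower. Of 23 piRNA pathway genes 9 were lower (39.1%), 6 higher (26.1%) and 2 within 2-fold (median -0.89). Mov10l1, the helicase of piRNA biogenesis, fell from 116, 117 and 114 RPKM to 6.75, 8.15 and 5.96 (-4.07 ± 0.21), and Piwil2, a prepachytene PIWI protein, from 77.1, 67.4 and 136 to 9.23, 12.2 and 8.74 (-3.16 ± 0.37). Tdrd6, of the chromatoid body, rose from 6.33, 6.24 and 35.3 RPKM to 218, 313 and 252 (4.53 ± 0.81). Translation and RNA storage genes were higher in 9 (39.1%) and lower in 8 (34.8%) of 23 cases (median 0.42), near the shares of all genes. Scaling to reads in genes gave 6 higher and 9 lower. Papolb, the cytoplasmic poly(A) polymerase of spermatids, rose from 8.62, 7.83 and 20.9 RPKM to 173, 150.2 and 182 (3.90 ± 0.30), and Cpeb1, which controls translation in early prophase, fell from 10.8, 9.63 and 10.4 to 0.0774, 0.118 and 0.0702 (-6.74 ± 0.34).

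Polycomb and repressive histone methylation factors were lower in 11 of 21 cases (52.4%, against 33.1% of all genes) and higher in 3 (median -1.56). Ehmt1, an H3K9 methyltransferase, fell from 5.59, 4.97 and 4.14 RPKM to 0.194, 0.175 and 0.165 (-4.70 ± 0.29), and Rnf2, a Polycomb ubiquitin ligase, from 19.5, 16.3 and 25.9 to 1.36, 1.61 and 1.35 (-3.81 ± 0.76). Kdm4d, an H3K9 demethylase, rose from 13.2, 13.5 and 23.8 RPKM to 100.2, 108 and 105 (2.68 ± 0.30). Genes of DNA methylation and its removal were lower in 6 of 10 cases (60%, against 33.1% of all genes) and higher in 2 (median -2.82). The de novo methyltransferase Dnmt3a fell from 2.23, 1.97 and 1.68 RPKM to 0.0785, 0.136 and 0.127 (-4.01 ± 0.31). Its relative Dnmt3b fell from 3.31, 2.71 and 2.64 RPKM to 0.0599, 0.146 and 0.101 (-4.76 ± 0.38), and Dnmt3l, their cofactor, rose from 0.122, 0.0826 and 0.223 to 2.99, 4.29 and 4.1 (4.73 ± 0.78).

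Sertoli cell markers fell as a list, 10 of 13 tested being lower and 1 higher (median -5.14). Cst9 was at 18.5, 17.9 and 35.9 RPKM in LZ and 0.391, 0.57 and 0.604 in RS (-5.45 ± 0.57), and Ctsl, a protease that other cells express too, at 26.6, 22.3 and 26.6 and 0.259, 0.24 and 0.148 (-6.84 ± 0.39). Of 10 tested spermatogonial markers 6 were lower and 1 higher (median -4.21), and Kit went from 5.26, 3.9 and 3.35 RPKM to 0.119, 0.0774 and 0.0648 (-5.44 ± 0.57). Another 11 of that list were too low to be tested. Among those lower, Stra8, Kit, Dmrt1, Sohlh1 and Sohlh2 are also counted above as meiotic entry regulators. Of the other somatic lists few members could be tested: 2 of Leydig cells (1 lower), 1 of myoid cells (lower), 6 of blood cells (4 lower, 1 higher, and 2 lower without LZ replicate 1, RS replicate 1 or RS replicate 3) and 1 of endothelial cells (higher).

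Long noncoding RNAs leaned upward. Of 1019 tested lncRNA genes 645 (63.3%) were higher and 114 (11.2%) lower, with a median of 2.16, against 3786 and 4079 of 11698 protein-coding genes (32.4% and 34.9%, median -0.03). Of 296 tested miRNA genes 46 were higher (15.5%) and 113 lower (38.2%), with a median of -1.31. In the table assembled de novo, 9032 of 21515 tested genes (42%) were higher and 5695 (26.5%) lower, 68.4% together, 1416 (6.58%) were within 2-fold, and for 80.7% the groups did not overlap. Loci free of reference genes on the same strand numbered 5329 and were higher in 2668 cases (50.1%) and lower in 1053 (19.8%). Loci of 2 or more exon blocks were higher in 1779 and lower in 243 of 2836 cases, and loci of a single block in 889 and 810 of 2493. On the X 30 of 82 loci free of reference genes on their strand were higher and 32 lower. With a pseudocount of 1 RPKM, loci of 2 or more blocks were higher in 835 and lower in 128 cases. Loci of a single block were then higher in 466 and lower in 704. Loci of 2 or more blocks had a median of 0.176 RPKM in LZ, 1.01 in RS and 1.62 in EES. Features were tested at 1 RPKM in 3 of 15 libraries, only 3 of them LZ. Those low in LZ could pass through later stages, and the filter's part in the upward lean was not tested.

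The de novo loci with the largest changes among those that reached 8 RPKM were near 0 at one end. MSTRG.8333 on chromosome 14 (118042295 to 118043606, plus strand, opposite Dct) had 0, 0 and 0.0461 RPKM in LZ and 11.4, 12.3 and 8.60 in RS (log2 fold change 9.23 ± 0.79). MSTRG.23639 on chromosome 8 (33493003 to 33493206, plus strand) had no read in LZ and 8.09, 7.54 and 9.47 RPKM in RS, and MSTRG.9868 on chromosome 16 (31377783 to 31380154, plus strand, opposite 1700007E05Rik) rose by 7 ± 1.57 on the log2 scale. In the juvenile library these 3 loci were at 10.02, 14.1 and 11.8 RPKM. At the other end, MSTRG.8076 on chromosome 14 (70816064 to 70816397, minus strand) had 26.0, 22.2 and 9.87 RPKM in LZ, MSTRG.6408 on chromosome 13 (51537982 to 51538297, plus strand, opposite Shc3) had 22.5, 17.6 and 11.4, and MSTRG.2586 on chromosome 10 (93955146 to 93955630, plus strand, opposite Vezt) had 14.4, 14.6 and 13.3. None of these 3 had a read in the RS libraries. Whether reads were counted by strand is not given in the sources used here, so a locus opposite a gene may hold reads of that gene.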

How the data were processed

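RNA-seq libraries of sorted mouse germ cells were analysed from the deposited tables. The submitters' processing notes name Trim Galore, STAR and the build GRCm38 (mm10), and the de novo transcripts were assembled with StringTie 1.3.4d, per the file headers. The handling of reads with several matches, and of strand, is not stated in these sources. The deposited values are log2 of 100 times RPKM plus 1, made by the authors. RPKM was computed back from them, and library totals and whole reads were inferred. In the de novo table, with exon lengths from the deposited assembly, 100% of values above 0 lay within 0.01 read of a whole number. For the gene table exon lengths were themselves chosen to give whole reads, so the same 100% is no check there. Transcript coordinates were taken from the deposited assembly.

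Genes with at least 1 RPKM in 3 of 15 libraries were fitted with limma 3.58.1 in R 4.3.3 (5 stages, moderated with a mean-variance trend), with Benjamini-Hochberg adjustment, and RS was contrasted with LZ. The X-to-autosome ratio was tested by an exact permutation test. Other steps used Python 3.11.15 with pandas 2.3.3, scipy 1.17.1 and matplotlib 3.10.9. The fit was run on simulated data with 100 genes changed 4-fold and 100 changed 8-fold among 13260. Of the changed genes 100% were recovered with the right sign, with 4 false calls. Few genes were changed there, whereas 67.4% of tested genes were called higher or lower in the data. The simulation therefore gives no error rate for the calls reported here. Recovery of smaller changes, and of changes that cover most genes, was not tested. The 14 alternatives were other scalings, another pseudocount, no filter, 6 libraries only, a replicate block, limma voom on whole reads (4666 higher, 4509 lower) and each library left out.

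Members and the 36 lists were chosen with earlier results of these data known. Named genes were up to 4 members of each list with the largest change in its main direction and the largest in the other, the 12 largest rises and falls at 32 RPKM or more, the 12 genes that dipped in PD and came back (1 is not reported here), the 10 largest X-linked falls, the pairs, the markers and 3 de novo loci in each direction. Precision is limited by 3 libraries per group. Library totals were 90553570 to 159185303 reads.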

Additional observations from a re-analysis of the deposited data

How the results depend on the processing

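No named gene that was called higher or lower changed sign in the alternatives run. Named genes without a call did, among them under quantile normalization Tnp1 (-0.74), Rpl36al (-0.39), Pdha2 (-0.10) and Pabpc1 (-0.02), as did the median of all genes (0.08 to -0.39 with scaling to reads in genes) and the balance of the respiratory chain (13 higher and 5 lower to 3 and 19 under quantile normalization). Without the filter on low values every gene with a read in any of the 15 libraries was tested, a larger set. In that set the genes lower in RS numbered 7419, the X-linked genes lower 543, and the X-to-autosome difference was -2.35. The genes within 2-fold numbered 1644 with the 6 LZ and RS libraries only and 2977 with a pseudocount of 1 RPKM. Beyond the larger tested set without the filter, the cause of these shifts was not tested. Scalings moved the share of higher genes among all called from 50.9% to 55.3% (median centring), 42.2% (reads in genes) and 50.1% (quantile). Leaving out each library in turn gave 4191 to 4733 genes higher and 4171 to 4391 lower, 126 to 143 X-linked genes higher and 274 to 285 lower, an X-to-autosome difference of -1.47 to -1.06, 736 to 874 genes within 2-fold, and 8386 to 9324 de novo genes higher and 5425 to 5648 lower. Where a group was left with 2 libraries, limma pooled the spread over the stages. Quantile normalization left 202 of 232 named genes with their call.

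Same-numbered LZ and RS libraries did not deviate together (Pearson r 0.081, -0.0098 and -0.013 across genes), so the numbers were not taken as pairs. With a replicate block 4539 genes were higher and 4355 lower, 147 X-linked genes higher and 285 lower, 9007 de novo genes higher and 5667 lower, and 1001 within 2-fold, and all 232 named genes kept their call.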

Other observations

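Among X-linked gene families, Ssx and Xlr genes moved in opposite directions. Other families were mixed: of 14 tested Rhox genes 2 were higher and 8 lower, and of 14 Magea and Mageb genes 1 was higher and 12 lower. These families were chosen after their values were seen, so their counts carry no test. All 8 tested Ssx genes, X-linked relatives of cancer-testis antigens, were higher in RS, with log2 fold changes of 6.11 to 8.90. Their LZ means were at most 0.229 RPKM, their PD means at most 0.325 and their RS means 3.51 to 29.4. All 8 tested Xlr genes, an X-linked lymphocyte-regulated family also expressed in meiosis, were lower, with LZ means of 1.74 to 18.8 RPKM and RS means of at most 0.448. On autosomes all 15 tested genes of the rodent Speer family, with the related Gm9758 and Gm21190 counted in, were higher, by 3.96 to 7.63 on the log2 scale. Copies within each family are near-identical, so values of single copies are uncertain.

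Among lncRNA genes that reached 32 RPKM in either group with no overlap between groups, 51 in all, those lower in RS were Malat1, Norad and 1700001L05Rik. Malat1, a nuclear lncRNA of most cells, was at 123.9, 105.7 and 127.2 RPKM in LZ and 24.8, 22.9 and 24.98 in RS (-2.29 ± 0.89). Norad, a cytoplasmic lncRNA that binds Pumilio proteins, changed by -2.07 ± 0.41, and 1700001L05Rik by -1.16 ± 0.19.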
